A study of Mus musculus with 12 samples.

Results

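Of the 10 genes described here, 9 encode cytosolic sulfotransferases, and Papss2 encodes an enzyme that makes their sulfate donor. They were chosen by name, as rows of a gene table of 27912 genes, and all 10 were found: Sult1a1, Sult1b1, Sult1c2, Sult1d1, Sult1e1, Sult2a1, Sult2a8, Sult2b1, Sult5a1 and Papss2. Their RNA was measured by sequencing of polyadenylated RNA from livers of male mice, either wild-type C57BL/6 (WT) or knockout for the chemokine receptor CCR1 (CCR1-KO), 8 weeks old when feeding began. The strain of the knockout is not named. Both groups ate a diet high in fat and cholesterol with cholate (the CL diet) for 12 weeks, so each difference below is between genotypes on the same diet. WT replicates 62, 63 and 64 were compared with CCR1-KO replicates 65, 66 and 67. The labels describe 12 libraries in 4 groups of 3. The other 6 libraries (WT replicates 76, 77 and 80 and replicates labelled LKO, 83, 85 and 87) were not analysed here. The sources used here do not state which part of Ccr1 was removed. They also do not say whether each library is 1 animal, so p-values measure only the spread between these samples.

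Sulfation joins a sulfate group to a small molecule and usually makes it more soluble and less active. The cytosolic sulfotransferases take the sulfate from 3'-phosphoadenosine 5'-phosphosulfate (PAPS), which PAPS synthases build from ATP and inorganic sulfate. Family 1 enzymes act mainly on phenols, catecholamines, thyroid hormones and oestrogens, and family 2 enzymes on hydroxysteroids, cholesterol and bile acids. In liver these enzymes clear hormones, drugs and bile acids, and several of their genes are expressed at different levels in male and female mice.

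In CCR1-KO livers Sult2a8 and Sult5a1 rose, Sult1c2 fell, and the 6 other tested genes did not pass the threshold. Sult2a8 changed 2.63-fold and Sult5a1 5.35-fold between group means, and Sult1c2 fell to 0.244 times the WT mean. Sult2b1 had too few reads to be tested. Outside the 10 genes Papss1, the other PAPS synthase gene, also fell. Values are CPM (read counts relative to library totals after TMM scaling) or FPKM. The FPKM are the authors' values, which divide by gene length and do not carry this TMM scaling. The fold values above are ratios of CPM means, and ratios in FPKM differ. For Sult2a8 the means were 243 FPKM in CCR1-KO and 116 FPKM in WT. A log2 fold change sets CCR1-KO over WT and stands with its standard error (SE). The test was edgeR's quasi-likelihood fit, adjusted by Benjamini-Hochberg over all 17729 genes tested, with a threshold of 0.05. Of all tested genes 6.44% passed, 2.83% higher and 3.61% lower, and 32.6% had groups that did not overlap in CPM. Of the 9 tested members 3 passed, 2 higher and 1 lower, and these 3 were also the ones whose groups did not overlap. Over the 9 the median log2 fold change was 0.51, against 0.0017 over all tested genes. That median is the value of Sult2a1, which had few reads and an SE of 0.75.

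The libraries held 74699391 to 79154085 counted reads. The TMM factors were 1.06, 1.12 and 1.17 in WT and 1.06, 0.874 and 0.779 in CCR1-KO replicates 65, 66 and 67. With these factors 1 read was worth 0.0113 to 0.0121 CPM in WT and 0.0125 to 0.0167 CPM in CCR1-KO. Ccr1 itself had 100, 23 and 123 reads in WT and 11, 4 and 14 in CCR1-KO (log2 fold change -2.72 ± 0.76, adjusted p = 0.075, groups that did not overlap). Liver markers were abundant: 10 hepatocyte genes such as Alb and Ttr summed to 90987 to 102457 CPM in WT and 86429 to 106891 CPM in CCR1-KO. Most of these sums was Alb (means 62532 CPM in WT and 56004 CPM in CCR1-KO). Of the 10 hepatocyte genes 3 rose, 0 fell and 7 did not pass, so similar sums do not mean that each gene was unchanged. In bulk tissue, fewer cells of a type and less RNA per cell cannot be told apart. The CCR1-KO libraries were not alike: of the 1141 genes past the threshold, CCR1-KO replicate 65 was the knockout library nearest the WT mean for 66.6%.

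The start regions of the 3 genes that passed are shown because their RNA levels moved in opposite directions. RefSeq windows on GRCm38.p6 (250 bases before to 50 bases after an annotated start, 300 in all) were found for 9 of the 10 genes. Capitals mark matches, on either strand, to TTCNNNGAA (the core bound by STAT5, the growth hormone-activated factor), AGGTCA (the core of nuclear receptor elements), GTTAAT (part of an element found in liver promoters) or to the promoter box TATAAA. Of 32851 such windows, 8.30% held TTCNNNGAA, 16.3% AGGTCA, 7.10% GTTAAT and 13.6% TATAAA. Sult2a8 has 2 annotated starts, at chr7:14446538-14446837 (minus strand) and chr7:14438502-14438801 (minus strand). The Sult5a1 window is chr8:123158231-123158530 (minus strand) and that of Sult1c2 chr17:53845909-53846208 (minus strand).
Sult2a8 first start: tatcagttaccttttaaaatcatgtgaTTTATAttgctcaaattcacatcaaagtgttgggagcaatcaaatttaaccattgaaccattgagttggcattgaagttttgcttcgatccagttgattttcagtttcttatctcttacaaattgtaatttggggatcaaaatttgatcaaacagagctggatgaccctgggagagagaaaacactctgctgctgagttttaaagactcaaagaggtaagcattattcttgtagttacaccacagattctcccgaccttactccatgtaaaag
Sult2a8 second start: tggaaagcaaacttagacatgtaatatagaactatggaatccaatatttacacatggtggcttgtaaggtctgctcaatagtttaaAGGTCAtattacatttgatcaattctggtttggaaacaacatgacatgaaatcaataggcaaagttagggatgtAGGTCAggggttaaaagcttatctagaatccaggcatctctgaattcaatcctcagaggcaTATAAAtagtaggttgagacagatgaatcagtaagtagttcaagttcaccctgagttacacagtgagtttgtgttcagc
Sult5a1: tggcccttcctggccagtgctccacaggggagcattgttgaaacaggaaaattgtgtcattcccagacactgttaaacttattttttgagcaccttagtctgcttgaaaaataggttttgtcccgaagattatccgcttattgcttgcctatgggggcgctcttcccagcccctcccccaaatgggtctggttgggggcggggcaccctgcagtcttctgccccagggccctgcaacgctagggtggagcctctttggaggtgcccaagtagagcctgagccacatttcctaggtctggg
Sult1c2: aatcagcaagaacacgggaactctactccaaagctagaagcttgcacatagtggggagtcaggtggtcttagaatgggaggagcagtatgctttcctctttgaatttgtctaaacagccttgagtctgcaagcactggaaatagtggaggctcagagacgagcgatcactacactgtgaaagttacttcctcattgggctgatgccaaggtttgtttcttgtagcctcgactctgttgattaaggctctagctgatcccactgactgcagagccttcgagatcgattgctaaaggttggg

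The second Sult2a8 window held AGGTCA at 164 and 90 bases before the start and TATAAA at 29 bases before it. Its first window held TATAAA at 223 bases before the start and no other match. The windows of Sult5a1 and Sult1c2 held none of the 4 motifs. Both Sult2a8 windows were poor in G and C (36.0% and 37.0%), against 54.7% for Sult5a1, 47.7% for Sult1c2 and a median of 52.7% over all windows. Among the others, AGGTCA was in a window of Sult1b1, Sult1e1 and Papss2. GTTAAT was in those of Sult1a1 and Sult1d1, and TATAAA in that of Sult1d1. The windows of Sult2b1 held none. A match is a description of letters and not of binding.

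Family 2 was represented by Sult2a8, Sult2a1 and Sult2b1, and only Sult2a8 was abundant. Sult2a8 encodes a mouse liver sulfotransferase with bile acids among its substrates (ENSMUSG00000030378, chromosome 7, 14410686 to 14446769, minus strand, GRCm38). It had 429, 430.2 and 272 CPM in WT replicates 62, 63 and 64, and 729.5, 974 and 1275 CPM in CCR1-KO replicates 65, 66 and 67. Every CCR1-KO library lay above every WT library, with WT replicate 64 the lowest and CCR1-KO replicate 67 the highest. The means were 993 ± 273 against 377 ± 91.3 CPM (SD, n = 3), with a log2 fold change of 1.40 ± 0.26 and adjusted p = 0.024. With 1 library left out the call passed in 1 of 6 fits, the one without CCR1-KO replicate 65 (log2 fold change 1.58, adjusted p = 0.0087). Leaving out any of the 5 other libraries ended the call (adjusted p from 0.059 to 0.095).

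The Sult2a genes form a cluster on chromosome 7 and resemble each other, which bears on how reads were assigned. Of the 50-base stretches of Sult2a8 transcripts, 1.72% were found in transcripts of other genes, none of them a Sult2a gene, and 0 of 3326 stretches of 150 bases, the read length, were shared. For Sult2a1 the shares were 33.2% at 50 bases, with Sult2a2, Sult2a5, Sult2a4, Sult2a6, Sult2a3 and a pseudogene, and 6.31% at 150 bases, with Sult2a2. Sult2a8 carried 99.0% to 99.9% of the reads of the 6 Sult2a genes of the table. Summed to 1 row, the 6 genes gave a log2 fold change of 1.39 ± 0.26 (adjusted p = 0.025). Sult2a7, the nearest neighbour of Sult2a8 on the same strand, had 3.49, 2.81 and 2.17 CPM in WT and 3.01, 1.33 and 0.937 CPM in CCR1-KO. Its groups overlapped (log2 fold change -0.67 ± 0.44, adjusted p = 0.39).

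Sult2a1 encodes a hydroxysteroid and bile acid sulfotransferase that is typically female-biased in mouse liver (chromosome 7, 13796246 to 13837409, minus strand). It was close to the limit of detection, with 21, 8 and 9 reads in WT and 26, 6 and 13 in CCR1-KO. The groups overlapped (means 0.212 ± 0.117 and 0.149 ± 0.0919 CPM; log2 fold change 0.51 ± 0.75, adjusted p = 0.72). Counting error alone was wide, with an exact 95% Poisson interval of 6.92 to 22.2 reads in CCR1-KO replicate 67 and 3.45 to 15.8 in WT replicate 63. Intervals of this kind cover counting error only. They take the counts as independent reads, and the sources used here do not state how the counts were derived.

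Sult2b1 encodes the cholesterol and pregnenolone sulfotransferase known best from skin (chromosome 7, 45729983 to 45784669, minus strand). It had 4, 8 and 14 reads in WT and 0, 2 and 0 reads in CCR1-KO, below the minimum for testing. Summed over groups this was 2 against 26 reads, a ratio per scaled read of 0.0971 with an exact 95% interval of 0.0112 to 0.388. The interval covers counting error only and not the spread between libraries, and it too takes the counts as independent reads. In the 2 fits with no filter on low values Sult2b1 did not pass (adjusted p from 0.37 to 0.39). Lmtk3, on the opposite strand, overlaps its annotated start (0, 7 and 33 reads in WT, 24, 20 and 10 in CCR1-KO), and the sources used here do not state whether reads were assigned by strand.

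Family 1 held the gene that fell, Sult1c2. Sult1a1, the phenol sulfotransferase (ENSMUSG00000030711, chromosome 7, 126672865 to 126676432, minus strand), had 293, 339 and 250.1 CPM in WT and 317, 406 and 356 CPM in CCR1-KO. The groups overlapped and the difference did not pass (means 359.6 ± 44.6 and 294 ± 44.4 CPM; log2 fold change 0.29 ± 0.16, adjusted p = 0.30). Its direction depended on scaling, since without scaling factors the log2 fold change was -0.017. Of its 50-base stretches 6.58% were shared with the pseudogene Gm6939, and none of its 150-base stretches.

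Sult1c2 encodes a family 1 enzyme of phenolic substrates (ENSMUSG00000023122, chromosome 17, 53829637 to 53846339, minus strand). It had 8.61, 9.88 and 10.8 CPM in WT and 3.00, 2.44 and 1.72 CPM in CCR1-KO, from 709, 875 and 950 reads against 240, 159 and 103. The highest CCR1-KO library had less than any WT library. In CCR1-KO the mean was 2.39 ± 0.641 CPM and in WT 9.77 ± 1.10 CPM (log2 fold change -2.03 ± 0.24, adjusted p = 0.0085). This call passed in each of the 6 fits that left out 1 library (adjusted p from 0.0029 to 0.049) and in all 10 alternatives of scaling, filter, tool and unit. Over 10333 genes compared, the 5 genes whose pattern over the 6 libraries lay nearest to that of Sult1c2 were Fam129b, Gm8834, Arl2bp, Papss1 and Anxa5. Their root mean square distances in centred log2 CPM were 0.11 for Fam129b and 0.21 to 0.22 for the others.

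Some markers of other liver cells were lower in CCR1-KO, as Sult1c2 was. The 10 listed cholangiocyte markers summed to 138 to 210 CPM in WT and 52.7 to 62.7 CPM in CCR1-KO. Most of that sum was Spp1, which fell from 142 ± 35.2 to 41.8 ± 4.07 CPM (adjusted p = 0.0074). Of 12 stellate cell and fibroblast markers 6 fell, and their sums were 425 to 980.4 CPM in WT and 209 to 231 CPM in CCR1-KO. Of 12 macrophage markers 2 fell (Itgax and Trem2), with sums of 308 to 407 CPM in WT and 179 to 429 CPM in CCR1-KO, which overlapped. Of 10 endothelial markers 0 passed in edgeR and 3 had an unadjusted p under 0.05, with sums of 165 to 239 CPM in WT and 151 to 205 CPM in CCR1-KO. Over all 17729 tested genes 3.61% fell and 4331 had an unadjusted p under 0.05. Of 11 tested lymphocyte and neutrophil markers 1 rose and 0 fell. No marker of the cholangiocyte, stellate and macrophage lists was without reads in a whole group, and their part in the Sult1c2 difference was not tested.

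Sult1b1, Sult1d1 and Sult1e1 lie side by side on the minus strand of chromosome 5, between 87513339 and 87591594, with no other gene of the table between them. Sult1b1, which acts on thyroid hormones and small phenols, had 36.8, 30.6 and 22.2 CPM in WT and 29.8, 21.4 and 35.8 CPM in CCR1-KO. Sult1d1, which acts on catecholamines and eicosanoids, had 85.2, 91.1 and 65.3 CPM in WT and 80.3, 177 and 124 CPM in CCR1-KO. Sult1e1, the oestrogen sulfotransferase, had 0.158, 0.407 and 0.239 CPM in WT and 0.213, 1.44 and 0.485 CPM in CCR1-KO. For each of the 3 genes the groups overlapped, and for Sult1d1 and Sult1e1 CCR1-KO replicate 66 was the highest of all 6 libraries. In replicate 66 Sult1e1 had 94 reads against 13 to 36 in every other library, and the exact 95% Poisson interval of the next highest, WT replicate 63, ended at 49.8 reads. That interval covers counting error only and takes the counts as independent reads.

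None of these neighbours passed the threshold. The log2 fold change was -0.04 ± 0.23 for Sult1b1 (adjusted p = 0.93), 0.66 ± 0.27 for Sult1d1 (adjusted p = 0.19) and 1.40 ± 0.75 for Sult1e1 (adjusted p = 0.29). Without CCR1-KO replicate 65, Sult1d1 passed (log2 fold change 0.90, adjusted p = 0.032). Sult1e1 had the same fitted change as Sult2a8, but an SE of 0.75 against 0.26.

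Sult5a1 encodes a sulfotransferase whose substrates are little known (ENSMUSG00000000739, chromosome 8, 123140192 to 123158315, minus strand). It had 8.58, 5.18 and 3.16 CPM in WT and 27.2, 22.6 and 40.8 CPM in CCR1-KO, from 706, 459 and 278 reads against 2172, 1477 and 2436. The lowest CCR1-KO library, replicate 66, was above the highest WT library, replicate 62. In CCR1-KO the mean was 30.2 ± 9.43 CPM and in WT 5.64 ± 2.74 CPM (log2 fold change 2.42 ± 0.38, adjusted p = 0.016). It was the largest fitted increase among the 9 tested members. With 1 library left out the call passed in 4 of 6 fits. Leaving out WT replicate 63 gave an adjusted p of 0.082, and leaving out WT replicate 64 gave 0.051.

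**Figure D1:**
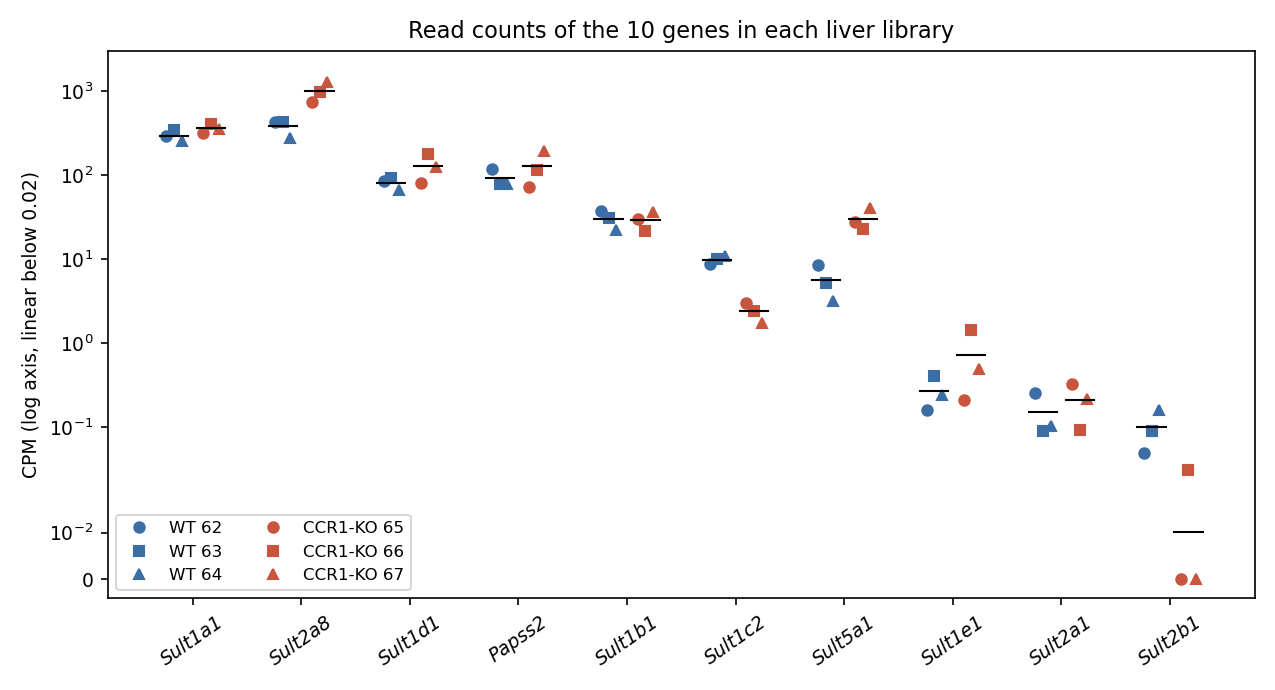
Each point is the CPM of a gene (x axis) in 1 liver library on a log axis that is linear below 0.02, with WT in blue and CCR1-KO in red, a marker shape per library and a bar at the mean of 3 libraries. Sult2a8 and Sult5a1 lie higher and Sult1c2 lower in every CCR1-KO library, while the points of the 6 other tested genes overlap between groups.

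**Figure D2:**
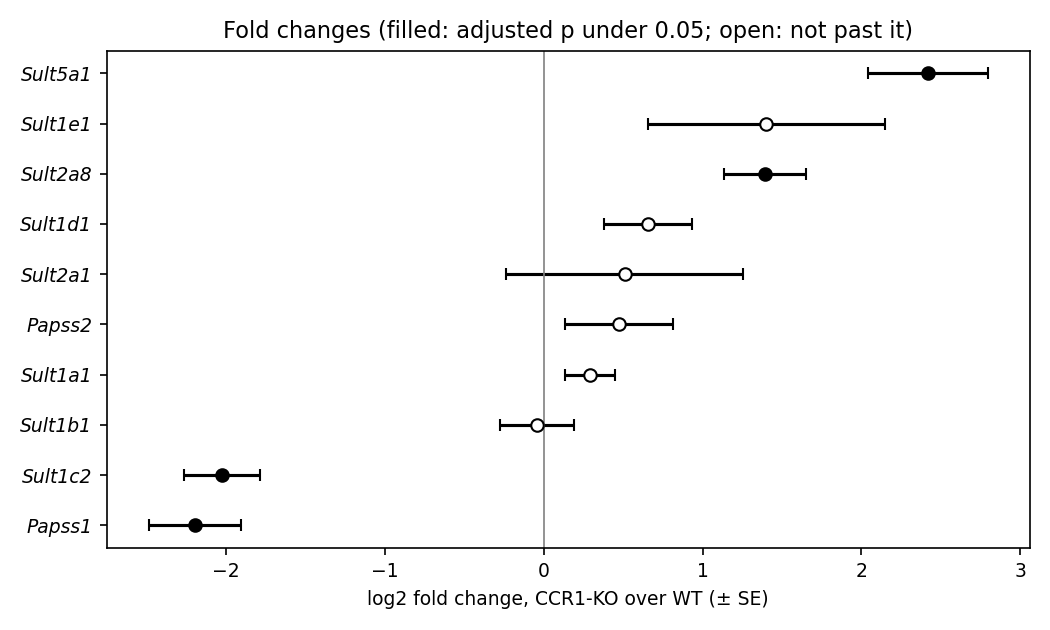
Points are log2 fold changes (CCR1-KO over WT) and bars their SE for the 9 tested members and Papss1, filled where the adjusted p was under 0.05. Sult5a1 (2.42) and Sult2a8 (1.40) are filled on the right, and Sult1c2 (-2.03) and Papss1 (-2.20) on the left.

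Sulfotransferases need PAPS, and of its 2 synthase genes Papss1 passed the test and Papss2 did not. Papss2 (ENSMUSG00000024899, chromosome 19, 32595790 to 32667185, plus strand), the main synthase gene of liver, had 117, 78.8 and 78.6 CPM in WT and 72.3, 115 and 195 CPM in CCR1-KO. The CCR1-KO libraries held both the lowest and the highest value, so the groups overlapped (means 127 ± 62.2 and 91.5 ± 22.3 CPM; log2 fold change 0.47 ± 0.34, adjusted p = 0.43). Papss1 (chromosome 3, 131564768 to 131643671, plus strand) had 9.45, 9.86 and 10.9 CPM in WT and 3.23, 1.70 and 1.62 CPM in CCR1-KO. Papss1 fell from a mean of 10.1 ± 0.723 CPM to 2.18 ± 0.904 CPM (log2 fold change -2.20 ± 0.29, adjusted p = 0.011). Leaving out WT replicate 63 raised the adjusted p to 0.057, and leaving out WT replicate 64 raised it to 0.051.

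Of the FPKM of the pair, Papss1 made up little. The ratio of Papss1 to Papss2 in FPKM was 0.0979, 0.152 and 0.168 in WT and 0.0545, 0.0179 and 0.0102 in CCR1-KO. Every CCR1-KO library was lower, and since both values come from 1 library the ratio does not depend on scaling. The sum of the 2 genes was 27.5 ± 9.28 FPKM in CCR1-KO and 28.2 ± 4.67 FPKM in WT (exact two-sided permutation p = 0.90, n = 3). Of the other genes of PAPS transport and breakdown, Slc35b2 (log2 fold change -0.37 ± 0.12), Slc35b3 (0.51 ± 0.14), Bpnt1 (0.20 ± 0.11) and Impad1 (-0.33 ± 0.10) did not pass in edgeR. Their groups did not overlap in CPM, which was also so for 32.6% of all tested genes.

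Per gene length, the order of the levels changed at its top. In WT Sult1a1 stood first (198 ± 27.5 FPKM), followed by Sult2a8 (116 ± 24.4 FPKM), Sult1d1 (33.2 ± 4.72 FPKM), Papss2 (24.9 ± 4.95 FPKM), Sult1b1 (10.8 ± 2.18 FPKM) and Sult1c2 (5.40 ± 0.861 FPKM). Sult5a1 had 1.27 ± 0.560 FPKM and the other 3 were under 0.5 FPKM. Among neighbours in that order, the ranges of Sult1d1 and Papss2 overlapped, as did those of Sult1e1 and Sult2a1. In CCR1-KO Sult2a8 was first (214 to 277 FPKM) and Sult1a1 next (169 to 215 FPKM), with ranges that just overlapped. There the ranges of Sult1d1 and Papss2, Sult1b1 and Sult5a1, Sult1c2 and Sult1e1, and Sult1e1 and Sult2a1 overlapped too. Sult5a1 (5.53 ± 1.30 FPKM) stood above Sult1c2 (1.09 ± 0.457 FPKM), with ranges that did not overlap.

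Within each library the ratio of Sult2a8 to Sult1a1 was 0.674, 0.583 and 0.499 in WT and 1.06, 1.10 and 1.64 in CCR1-KO. Sult1a1 was thus the higher in 3 of 3 WT libraries and Sult2a8 in 3 of 3 CCR1-KO libraries. The ratio of Sult5a1 to Sult1c2 was 0.415, 0.218 and 0.122 in WT and 3.77, 3.89 and 9.97 in CCR1-KO. These ratios and that of the PAPS synthases were chosen after their values were seen. By exact two-sided permutation each had p = 0.10, which is as low as 3 libraries a group can reach.

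Summed over the 9 sulfotransferase genes, the level was 368, 418 and 309 FPKM in WT and 467, 521 and 499 FPKM in CCR1-KO. The means were 365 ± 54.7 and 496 ± 27.4 FPKM, a ratio of 1.36 with groups that did not overlap (exact two-sided permutation p = 0.10, n = 3). In CPM scaled by TMM the sum was 1.93 times as high in CCR1-KO. Sult2a8 and Sult1a1 together were 86.0% ± 0.574 of the summed FPKM in WT and 88.5% ± 1.58 in CCR1-KO. The share of Sult2a8 was 31.6% ± 2.97 in WT and 49.0% ± 5.74 in CCR1-KO, that of Sult1a1 54.4% ± 3.06 and 39.5% ± 5.04. Sult1c2 went from 1.52% ± 0.436 to 0.223% ± 0.104 of the sum, and Sult5a1 from 0.346% ± 0.142 to 1.12% ± 0.296.

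**Figure D3:**
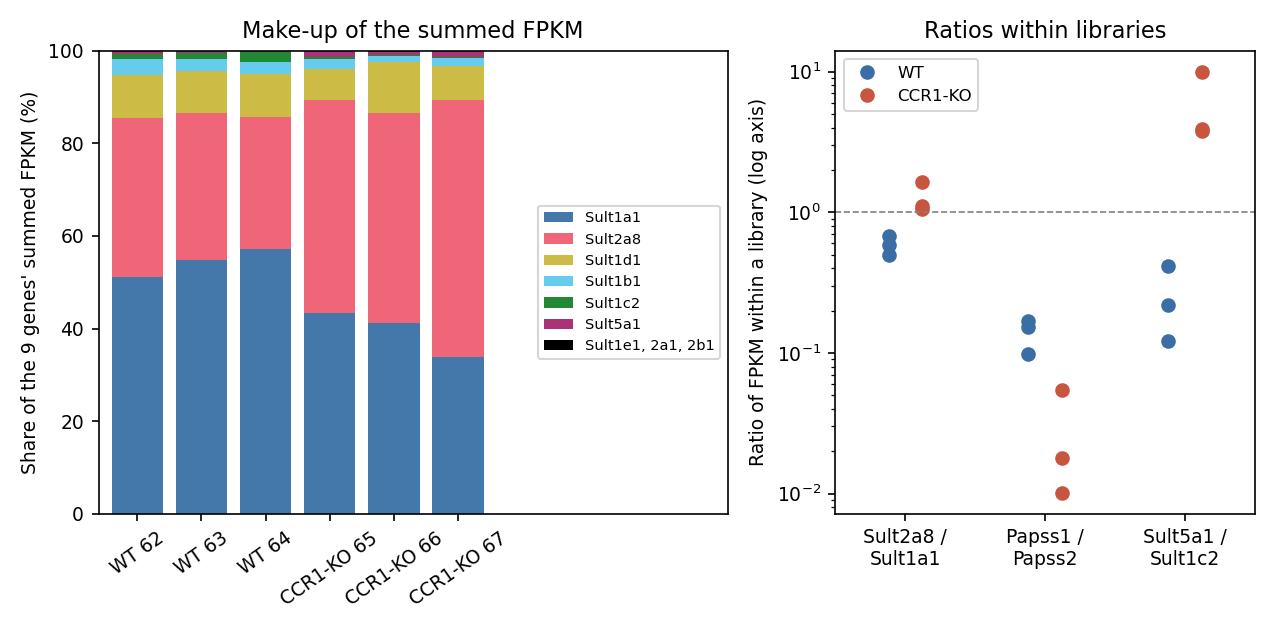
Stacked bars show each gene's share, in percent, of the summed FPKM of 9 sulfotransferase genes in each library, and points show ratios of FPKM within a library on a log axis for WT (blue) and CCR1-KO (red), with a dashed line at a ratio of 1. Sult2a8 takes 28.5% to 34.4% of the WT bars and 45.4% to 55.6% of the CCR1-KO bars, and its ratio to Sult1a1 lies below 1 in the 3 WT libraries and above 1 in the 3 CCR1-KO libraries.

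Of 9 other cytosolic sulfotransferase genes in the table, 4 were tested (Sult2a2, Sult2a7, Sult3a1 and Sult4a1), and 0 passed in edgeR, 0 at an unadjusted p under 0.05 and 0 in DESeq2. Without CCR1-KO replicate 65, 1 of them was lower. Of 12 tested sulfatase genes, whose products remove sulfate groups, 3 fell and 9 did not pass (median log2 fold change -0.69). The lysosomal arylsulfatase A gene Arsa fell from 75.5 ± 6.47 to 47.7 ± 2.06 CPM (log2 fold change -0.66 ± 0.11, adjusted p = 0.020). Arsb (log2 fold change -0.89 ± 0.18, adjusted p = 0.029) and the iduronate sulfatase gene Ids (log2 fold change -0.73 ± 0.14, adjusted p = 0.026) fell too. None of the 3 calls was kept when any 1 library other than CCR1-KO replicate 65 was left out, and without replicate 65 there were 6. Of 23 tested Golgi sulfotransferases, which act on sugar chains and tyrosines, 0 passed in edgeR, 6 had an unadjusted p under 0.05, and 3 passed in DESeq2 (2 higher and 1 lower). Over all 17729 tested genes 4331 had an unadjusted p under 0.05 in edgeR, and DESeq2 gave 1162 higher and 1359 lower.

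Of 17 tested genes of sulfate uptake and supply, 2 rose and 1 fell, beside 2.83% higher and 3.61% lower among all tested genes. Cbs, the cystathionine synthase of the route from methionine to cysteine, rose from 143 to 200.7 CPM in WT to 274 to 352 CPM in CCR1-KO (log2 fold change 0.83 ± 0.17, adjusted p = 0.032). Got1, a cytosolic transaminase, rose by 1.06 on the log2 scale (adjusted p = 0.049), and Tstd1, a rhodanese-like protein gene, fell by 1.32 (adjusted p = 0.024). No gene of this list rose when any 1 library other than CCR1-KO replicate 65 was left out. The fall of Tstd1 was lost without WT replicate 63 or 64 and without CCR1-KO replicate 66 or 67.

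Glucuronidation is the other main conjugation route of liver. Of its 20 tested genes Ugt2b1 rose (from 178 ± 15.8 to 539 ± 285 CPM; log2 fold change 1.60 ± 0.35, adjusted p = 0.039). Ugdh, which makes UDP-glucuronate, fell (from 185 ± 10.2 to 95.3 ± 1.53 CPM; log2 fold change -0.96 ± 0.11, adjusted p = 0.0085), and 18 did not pass. The median of the 20 was 0.057, and of all tested genes 2.83% passed higher and 3.61% lower. The rise of Ugt2b1 was lost when any 1 library other than CCR1-KO replicate 65 was left out.

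Of 22 tested receptors and factors known to act on sulfotransferase genes, 2 rose and 20 did not pass. The shares over all tested genes were 2.83% higher and 3.61% lower. Nr1i2, which encodes the xenobiotic receptor PXR, rose from 74.3 ± 6.06 to 114 ± 15.0 CPM (log2 fold change 0.62 ± 0.14, adjusted p = 0.040). Rora, an orphan receptor gene, rose from 37.3 ± 0.938 to 53.0 ± 4.21 CPM (log2 fold change 0.51 ± 0.11, adjusted p = 0.038). Both were lost when any 1 library other than CCR1-KO replicate 65 was left out, without scaling factors, with no filter and in limma. With upper-quartile scaling only 1 gene of this list was higher. Of 12 transporters of sulfated hormones and bile acids, Slco1a1 rose (from 21.1 ± 8.38 to 358 ± 114 CPM; log2 fold change 4.09 ± 0.37, adjusted p = 0.0033) and Slco1a4 fell (from 96.8 ± 29.7 to 25.1 ± 10.8 CPM; log2 fold change -1.95 ± 0.36, adjusted p = 0.024). The fall of Slco1a4 was lost without WT replicate 62, 63 or 64 and without CCR1-KO replicate 66.

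Genes that differ between the sexes in mouse liver moved in these male mice as well. Of 23 tested male-biased genes, which include Slco1a1 and 3 Mup genes but no sulfotransferase, 16 rose and 7 did not pass (median log2 fold change 2.80). Of 22 tested female-biased genes 5 fell and 17 did not pass (median -0.61). The summed level of the male-biased list was 3729 to 5055 CPM in WT and 8073 to 65613 CPM in CCR1-KO. Mup genes weighed heavily in it: in CCR1-KO replicate 67 Mup1, Mup7 and Mup20 had 15045, 23211.5 and 8248 CPM. The sums of the female-biased list overlapped, at 1576 to 2230 CPM in WT and 1566 to 3082 CPM in CCR1-KO. The 21 major urinary protein (Mup) genes took 0.927% to 1.05% of reads in WT and 3.36%, 12.2% and 15.8% in CCR1-KO replicates 65, 66 and 67. With Mup genes removed, Sult2a8 and Sult5a1 kept their calls. The part of the male-biased genes in the Sult2a8 and Sult5a1 differences was not tested.

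**Figure D4:**
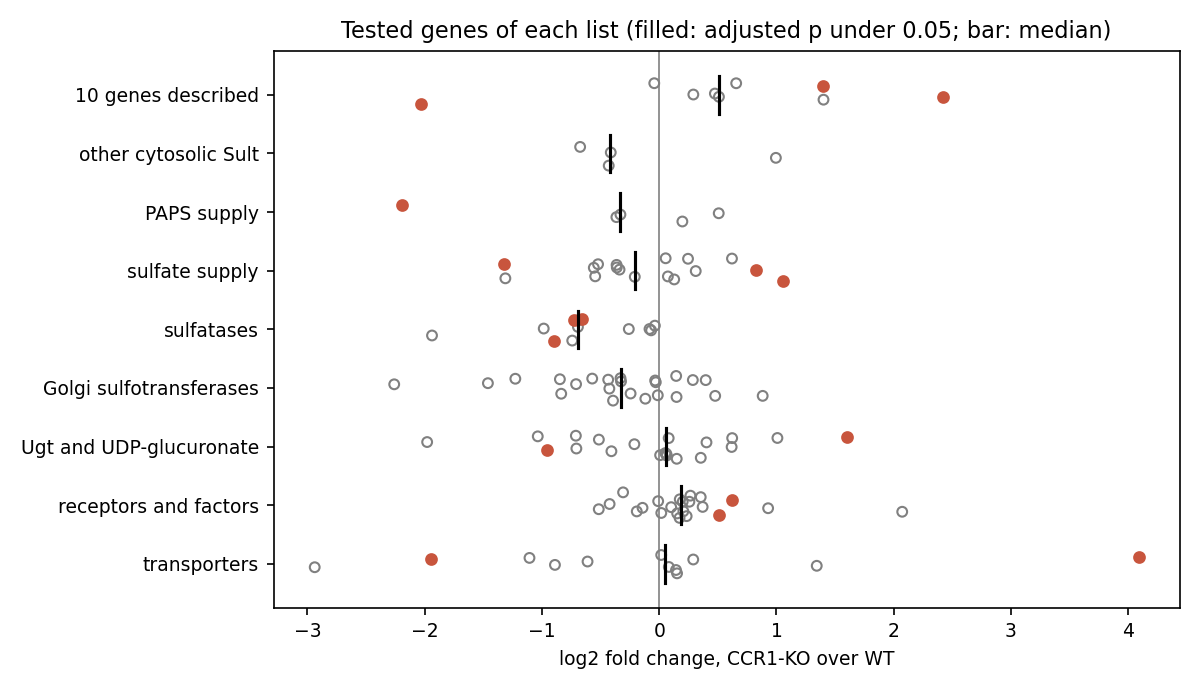
Each point is a tested gene of a list (y axis) at its log2 fold change of CCR1-KO over WT (x axis), filled where the adjusted p was under 0.05, with a bar at the list's median; vertical spread within a row has no meaning. The medians run from -0.69 for sulfatases to 0.51 for the 9 tested of the 10 genes described, which is the value of the low-count gene Sult2a1. In most lists the filled points are few.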

How the data were processed

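Liver RNA of 6 libraries was compared, 3 of WT and 3 of CCR1-KO mice, grouped by the titles of the samples. The submitters' processing notes name cutadapt 1.9, HISAT2 2.2.1 and StringTie 2.1.6, and also list DESeq2 and edgeR, without saying what each did. Per the file headers, the deposited table holds whole-number read counts per gene, not normalized, and FPKM values made by the authors. The notes give the human build GRCh38. Because 27839 gene identifiers occur in mouse GENCODE M21, and 90.0% of them at identical coordinates, positions are stated on GRCm38. Among the members only Papss2 had other coordinates there, and its deposited position is the one given.

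The counts were fitted with edgeR 4.0.16 (R 4.3.3): filterByExpr (minimum count 10, minimum total 15), TMM factors, glmQLFit and glmQLFTest. CPM use the TMM factors. Each SE was obtained by dividing the size of the log2 fold change by the root of its F statistic. Biological coefficient of variation was 0.302. The test was checked on simulated data. Every replicate pair differed by more than sampling noise (chi-square per degree of freedom at least 68.7). Alternatives were other scalings and filters, DESeq2 1.42.0, limma 3.58.1 on log2(FPKM + 0.5), removal of Mup genes and leaving out each library. Single values were tested by exact permutation (scipy 1.17.1). RefSeq promoter windows came from GRCm38.p6. Exact stretches of transcripts were compared within GENCODE M21.

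The members and gene lists were chosen with earlier results of these data known. All 10 members were described. From other lists, genes past the threshold were named, up to 4 per list by smallest p for sulfation lists. The neighbours in pattern were taken for the member of smallest p, among genes with a mean of at least 1 FPKM. One marker gene's result is not reported here.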

Additional observations from a re-analysis of the deposited data

How the results depend on the processing

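Sult1c2 kept its direction and its call in all 16 alternatives run. Sult2a8 and Sult5a1 kept their direction in all, but Sult2a8 lost the call in 5 fits without 1 library and Sult5a1 in 2, and both lost it in limma on log2(FPKM + 0.5) with no filter (Sult2a8 1.08, adjusted p = 0.065; Sult5a1 1.79, adjusted p = 0.051). With 1 library left out, the log2 fold change ran from 1.17 to 1.58 for Sult2a8, 2.13 to 2.86 for Sult5a1, 0.34 to 0.90 for Sult1d1 and -0.22 to 0.14 for Sult1b1, whose sign turned. Sult1a1 turned to -0.017 without scaling factors and to -0.016 in limma on FPKM with each pseudocount and filter. Sult2a1 gave 1.39 when the Sult2a genes were summed, because Sult2a8 makes up that sum. The summed FPKM of the 9 genes had a log2 ratio of 0.44, against 0.95 in CPM and 0.77 with FPKM rescaled by TMM factors.

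Over all genes 501 were higher and 640 lower. Without 1 library the counts ran from 36 to 1010 higher and 66 to 1409 lower. DESeq2 gave 1162 and 1359, edgeR with no filter 314 and 421. Limma gave 223 and 1088 with a pseudocount of 0.5, 217 and 969 with 0.1, 225 and 1124 with 1, and 67 and 172 with no filter. Without scaling factors 219 were higher and the median of all genes moved by -0.30, so the share of calls that were higher was 20.4% against 43.9%. No paired analysis was possible because the groups share no replicate numbers. The cause of these changes was not tested. The 3 lower sulfatases were 7 in DESeq2, 5 to 6 in filtered limma and 0 in limma with no filter, and without 1 library 0 to 6. The 2 higher genes of sulfate supply were 0 to 3 without 1 library, and 0 without scaling factors and in limma, which with a filter had 4 lower. The 2 higher receptors were 0 to 5 without 1 library. Sult2a1 had at most 26 reads in a library and Sult2b1 at most 14, so small differences were not detectable at this depth.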
